A study of Gallus gallus with 24 samples.

Results

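Transcripts of 8 core genes of the Sonic hedgehog pathway were described in cultured chick retinal pigment epithelium (RPE): the ligand SHH, its receptor PTCH1, the signal transducer SMO, the ligand-binding inhibitor HHIP, the transcription factors GLI1, GLI2 and GLI3, and SUFU, which restrains them. They were chosen by gene symbol and not by a cut on their values, though with earlier results of these data known. All 8 had a row among the 24356 gene rows of the deposited table, and 7 of them were among the 15001 genes that were abundant enough to test. SHH itself was below that limit (a mean of at least 10 normalized counts over all libraries) and is described from its reads.

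Polyadenylated RNA was sequenced from explants of RPE, the pigmented layer behind the neural retina, of embryonic day 4 chickens from a specific pathogen free flock. The control groups had maintenance medium for 24 or 48 h, and the other groups had the same medium with 10 ng/ml fibroblast growth factor 2 (FGF2), with 20 mM dichloroacetate (DCA), an inhibitor of the pyruvate dehydrogenase kinases, or with both (DCA+FGF2), for the same times. Each of the 8 groups held 3 biological replicates, and each replicate pooled 3 explants, so the 24 libraries average over explants and over whatever cells an explant carried. The comparisons asked how each agent changed the pathway's transcripts, whether DCA altered the effect of FGF2, and how 24 h differed from 48 h.

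Hedgehog ligands bind PTCH1, which otherwise keeps SMO inactive. Released SMO acts in the primary cilium, where SUFU loses its hold on the GLI factors and the balance shifts from GLI repressors, mainly made from GLI3, to GLI activators, mainly made from GLI2. GLI1, PTCH1 and HHIP are direct targets of the active pathway in many tissues, so their transcripts are widely used as its readout, and PTCH1 and HHIP feed back to limit it. In the vertebrate eye, midline SHH patterns the ventral optic vesicle, and later SHH from retinal ganglion cells acts on retinal progenitors.

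The libraries held 32818162 to 72724381 reads in genes, with a median of 37457750. Replicate 3 of FGF2 was the deepest library at each time (69011298 and 72724381 reads), and the other 22 held at most 47066340. The tissue label was checked against 15 RPE and pigment markers, and all 15 were present, with summed levels of 219258 to 259775 normalized counts in the 24 h controls. At 48 h these markers summed to 278231 to 300871 in control, 107018 to 203899 with DCA, 66479 to 94480 with FGF2 and 53836 to 64478 with DCA+FGF2. The part of this lower RPE signal in the 48 h results that follow was not tested. The explants were not pure RPE: 16 markers of the mesenchyme around the eye summed to 153997 to 166361 in the same libraries. A normalized count is the number of reads of a gene divided by 1 size factor per library. It carries no correction for gene length, so levels are compared here between libraries and not between genes. In such bulk RNA, fewer cells of a type and less RNA per cell cannot be told apart.

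**Figure D1:**
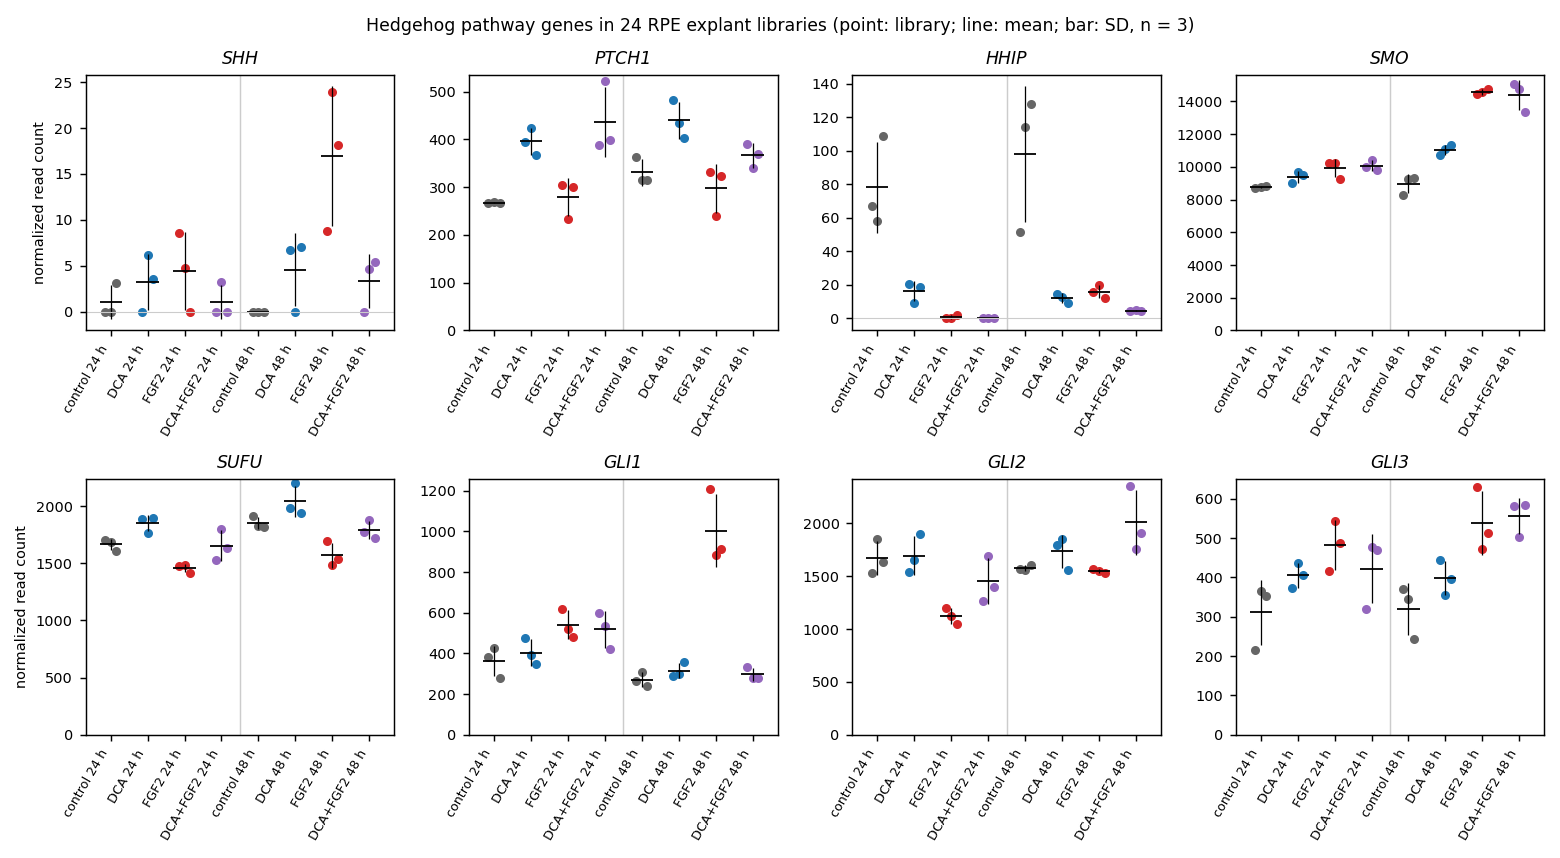
Normalized read counts of the 8 pathway genes in each of the 24 libraries (y axes, linear, a separate scale per gene), by treatment and time (x axes). Points are libraries, lines are group means and bars are SDs (n = 3). GLI1 stands apart in the 3 FGF2 libraries at 48 h (885 to 1210), SMO in both FGF2-containing groups at 48 h (13343 to 15038), and HHIP is highest in the 6 control libraries (51.5 to 128).

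The ligand was barely detected. In control explants SHH (ENSGALG00000006379) had 3 reads in 1 of the 24 h libraries and 0 in the other two, and 0 in all 3 libraries at 48 h. With FGF2 at 48 h the 3 libraries held 8.76, 23.9 and 18.1 normalized counts, from 8, 25 and 33 reads. With DCA+FGF2 at 48 h they held 0, 4.68 and 5.40. At 48 h SHH was therefore present in every FGF2 library and in none of the controls. The FGF2 libraries did not overlap those with DCA+FGF2 at that time. In the remaining groups values lay between 0 and 8.54, with at least 1 library at 0 in each.

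Against a floor of 3 reads per library, SHH with FGF2 at 48 h was at least 5.93-fold higher than in control. Its read ratio to DCA+FGF2 was 5.33, with a 95% interval of 2.65 to 12.2 that covers counting error only. StringTie is among the tools that the submitters name, so these reads may be estimates rather than direct counts. When no limit on low counts was set, so that SHH entered the fit, it was called with FGF2 at 48 h (limma adjusted p = 0.00238), and so was the interaction of DCA with FGF2 at 48 h (adjusted p = 0.0345). The direct difference between DCA+FGF2 and FGF2 at 48 h was not (adjusted p = 0.0743). The log2 size of these values depends on the added constant of 1, because a group at 0 enters. The interaction takes in DCA against that control group at 0, which gave 1.98 and was not called (limma adjusted p = 0.173). SHH was tested in this 1 fit alone, so its calls were not checked with another constant or setting.

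Summed markers of 1 cell type known to make SHH were also higher with FGF2 at 48 h. The 16 retinal ganglion cell markers summed to 18433 to 21954 with FGF2 at 48 h against 6210 to 6475 in control, and to 15666 to 19158 with DCA+FGF2, where SHH was low. Of the 14 tested, 10 were called higher and 3 lower with FGF2 at 48 h (all genes called 54.6%). In DCA+FGF2 against FGF2, 3 were higher and 7 lower (52.8%). At 48 h POU4F1 and POU4F2 were at 0 in every control library, and POU4F1 alone in every DCA+FGF2 library. With FGF2 no ganglion cell marker was at 0 throughout, so the control sums come from the other listed genes. ATOH7, needed to form ganglion cells, was at 3156 with FGF2 and 305 with DCA+FGF2 at 48 h. It was singled out from the 16 after its values were seen. The part of ganglion cells in the SHH reads was not tested. The other classical source is the ventral midline, and its 11 markers also summed higher with FGF2 at 48 h, to 9938 to 10367 against 5883 to 6591 in control. With DCA+FGF2 at 48 h, where SHH was low, they summed to 9809 to 10907. Of the 11 midline markers, FOXA2, FOXA1, NKX2-1, NKX2-2 and NKX2-4 were at 0 in every FGF2 library at 48 h. In control at 48 h NKX2-2 and NKX2-4 alone were at 0 in every library. SPON1 and RAX held most of the FGF2 sum (4070 and 3652 on average). RAX is also among the retinal progenitor markers, and TBX2, a dorsal eye factor, is in the list too. Of the 6 midline markers tested, 3 were called higher and 1 lower with FGF2 at 48 h (all genes called 54.6%). In DCA+FGF2 against FGF2 at 48 h, 2 midline markers were higher and 3 lower (52.8%). The part of midline cells in the SHH reads was not tested.

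Of the 2 related ligands, IHH was detected with FGF2 alone, at 0 to 4.27 normalized counts at 24 h and 0 to 11.5 at 48 h, and was at 0 in the other 18 libraries. It was too low for the test. DHH was lower with FGF2 than in control at 48 h (39.9 against 76.2 normalized counts; -0.94 ± 0.38, adjusted p = 0.0426). Unlike SHH at 48 h, DHH was higher with DCA+FGF2 than with FGF2. It held 140 against 59.4 at 24 h (1.26, limma adjusted p = 0.0135) and 83.3 against 39.9 at 48 h (1.04, adjusted p = 0.0264).

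The receptor PTCH1 (ENSGALG00000012620) was higher with DCA and was not called with FGF2 at either time. At 24 h the control libraries held 268, 270 and 266 normalized counts, the FGF2 libraries 305, 234 and 301, the DCA libraries 396, 424 and 368, and the DCA+FGF2 libraries 388, 522 and 399. All 6 libraries with DCA lay above all 6 without it. The log2 difference was 0.56 ± 0.15 for DCA against control (limma adjusted p = 0.01) and 0.63 ± 0.15 for DCA+FGF2 against FGF2 (adjusted p = 0.00208), where ± is the SE of the model.

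At 48 h PTCH1 held 364, 315 and 314 normalized counts in control, 332, 239 and 323 with FGF2, 482, 435 and 404 with DCA, and 391, 339 and 370 with both. DCA alone was again above control in every library, by 0.41 ± 0.15 (adjusted p = 0.0366), but this call was lost without replicate 2 or 3 of control or replicate 1 or 2 of DCA (adjusted p from 0.0662 to 0.136) and after scaling to total reads (0.0631). DCA+FGF2 exceeded FGF2 by 0.31 (95% interval 0.00 to 0.62), which missed the threshold after adjustment (adjusted p = 0.0821). FGF2 against control gave 0.06 at 24 h (interval -0.25 to 0.36, adjusted p = 0.827) and -0.16 at 48 h (interval -0.47 to 0.14, adjusted p = 0.371).

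HHIP (ENSGALG00000009948), the membrane-anchored protein that binds and sequesters hedgehog ligands, had its highest levels in control explants. At 24 h the control libraries held 67.2, 58.1 and 109 normalized counts, the DCA libraries 20.6, 9.20 and 18.5, the FGF2 libraries 0, 0 and 1.75, and the DCA+FGF2 libraries 0 throughout. Each treated group lay wholly below control, and FGF2 left 3 reads in 3 libraries where control had 223. HHIP reached the limit for testing only through its control libraries, with a mean of 88.0 over the 6 controls and 8.15 over the 18 treated libraries, so its tests against control draw on the group that admitted it. The control-to-FGF2 read ratio was 91.1, with a counting interval of 30.8 to 445 (limma adjusted p = 1.14e-07). HHIP fell with DCA alone by 2.23 on the log2 scale (adjusted p = 0.00852), and DCA+FGF2 was at least 4.73-fold lower than DCA alone (adjusted p = 1.99e-05).

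By 48 h HHIP was 51.5, 114 and 128 in control and 14.6, 12.4 and 9.02 with DCA. It was 15.3, 20.1 and 12.1 with FGF2, and 4.13, 4.68 and 4.32 with DCA+FGF2. The FGF2 libraries, empty or nearly so a day earlier, now overlapped those with DCA, and the libraries of the combination lay below those of both single agents. Its difference from DCA alone was not called (-1.25, adjusted p = 0.101). Against control the log2 difference was -2.48 with FGF2 (adjusted p = 0.000922) and -2.85 with DCA (adjusted p = 0.000647). Within the FGF2 groups HHIP rose from 24 to 48 h by 3.56 (adjusted p = 4.55e-05), and the FGF2 effect itself differed between the times by 3.29 (adjusted p = 0.00396). With 3 reads at 24 h the size of both depends on the added constant: over the alternatives the rise ran from 1.90 to 4.28 and the difference from 1.63 to 4.00.

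The drop from FGF2 to DCA+FGF2 at 48 h, -1.62 on the log2 scale, had an adjusted p of 0.0219 and was lost without replicate 2 of FGF2 (adjusted p = 0.0756), without replicate 1 of DCA+FGF2 (0.0509), or when these groups alone were fitted (0.0568). Summed markers of mesenchyme were lower with FGF2 than in control. They were at 85256 to 112413 at 24 h and 64381 to 75289 at 48 h, against 153997 to 166361 and 327798 to 388134. With DCA+FGF2 at 48 h, where HHIP was below FGF2, the mesenchyme sums stood above FGF2, at 163724 to 190096. Of the 15 mesenchyme markers tested, 13 were called higher and 1 lower in DCA+FGF2 against FGF2 at 48 h (all genes called 52.8%). With DCA at 24 h, where HHIP was low, the mesenchyme sums stood above control, at 194732 to 225880. Endothelial markers summed to 44878 to 53044 against 38837 to 45337, which overlapped. Gene by gene, 1 of 15 tested mesenchyme markers was called higher and 1 lower with DCA at 24 h (median 0.08). Of 9 endothelial markers 0 were called (median -0.03, all genes called 20.1%). At 48 h the DCA libraries summed to 231804 to 334406 for mesenchyme (control 327798 to 388134), to 14351 to 30581 for endothelium (control 32975 to 49909) and to 37626 to 47346 for blood (control 55421 to 71178). The part of these cells in the HHIP falls was not tested.

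SMO (ENSGALG00000036114), the transducer that PTCH1 holds inactive, rose with FGF2, by more at 48 h than at 24 h (difference 0.53, adjusted p = 3.4e-05). At 24 h the control libraries held 8707, 8767 and 8803 normalized counts and the FGF2 libraries 10254, 10217 and 9282. At 48 h control held 8298, 9260 and 9330, DCA 10734, 11068 and 11356, FGF2 14436, 14558 and 14755, and DCA+FGF2 15038, 14770 and 13343. Both groups with FGF2 lay above DCA at 48 h, DCA lay above control, and FGF2 and DCA+FGF2 overlapped.

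The log2 change in SMO with FGF2 was 0.18 at 24 h (adjusted p = 0.0177) and 0.70 ± 0.06 at 48 h (adjusted p = 6.9e-10). The 24 h call was lost without replicate 1 or 2 of FGF2 (adjusted p = 0.0835 and 0.0719) and after scaling to total reads (0.0865). DCA alone raised SMO at 48 h by 0.30 (adjusted p = 0.000243). Adding DCA to FGF2 gave -0.02 (interval -0.14 to 0.09, adjusted p = 0.772), and the interaction of the agents was -0.33 ± 0.08 (adjusted p = 0.00316).

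SUFU (ENSGALG00000008096), the cytoplasmic inhibitor of the GLI factors, moved little. At 48 h the control libraries held 1917, 1826 and 1815 normalized counts, the FGF2 libraries 1692, 1482 and 1536, and the DCA+FGF2 libraries 1775, 1880 and 1717. FGF2 lay below both other groups in each library. SUFU fell by 0.24 on the log2 scale with FGF2 at 48 h (adjusted p = 0.00624). The smaller differences, FGF2 against control at 24 h (-0.19, adjusted p = 0.046) and DCA+FGF2 against FGF2 at 48 h (0.19, adjusted p = 0.027), depended on single libraries, as did the one between DCA+FGF2 and DCA at 48 h (-0.19, adjusted p = 0.0435). The first was lost without any 1 of the 6 libraries compared (adjusted p from 0.054 to 0.131), and the second without replicate 2 or 3 of FGF2 or any replicate but the third of DCA+FGF2 (0.0503 to 0.12). The last was lost without replicate 1 or 2 of DCA or replicate 1 or 3 of DCA+FGF2 (0.05 to 0.207), and when these groups alone were fitted (0.148).

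GLI1 (ENSGALG00000042422), a transcriptional activator whose own gene is the standard readout of the pathway, had the larger of the 2 interactions that were called. At 24 h the control libraries held 381, 428 and 281 normalized counts, the FGF2 libraries 620, 522 and 483, and the DCA+FGF2 libraries 599, 536 and 421. At 48 h the control libraries held 266, 310 and 238, the DCA libraries 288, 301 and 358, the FGF2 libraries 1210, 885 and 913, and the DCA+FGF2 libraries 332, 280 and 279. At 48 h every FGF2 library lay far above all the others, while DCA+FGF2 overlapped both control and DCA.

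FGF2 raised GLI1 by 0.59 ± 0.18 at 24 h (adjusted p = 0.015) and by 1.88 ± 0.18 at 48 h (adjusted p = 1.15e-08), a ratio of means of 3.70 at 48 h. The 24 h call was lost without replicate 3 of control (adjusted p = 0.112) or replicate 1 of FGF2 (0.0839). DCA alone gave 0.16 and 0.22 at the 2 times (intervals -0.21 to 0.53 and -0.15 to 0.59, adjusted p = 0.575 and 0.364). Added to FGF2, DCA made no called difference at 24 h (-0.07, interval -0.44 to 0.30, adjusted p = 0.794), and at 48 h it brought GLI1 from 1003 ± 180 to 297 ± 30.3 (SD, n = 3), a change of -1.74 ± 0.18 (adjusted p = 4.75e-08).

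The interaction at 48 h, which is the effect of DCA in the presence of FGF2 less its effect in plain medium, was -1.96 ± 0.25 for GLI1 (adjusted p = 6.84e-06). From 24 to 48 h GLI1 rose with FGF2 alone (0.88, adjusted p = 0.000478) and fell with DCA+FGF2 (-0.79, adjusted p = 0.00173). The FGF2 effect was larger at 48 h than at 24 h by 1.29 ± 0.25 (adjusted p = 0.000552). Retinal progenitor markers, 13 genes that include SOX2 and RAX, moved beside it at 48 h, with sums of 22406 to 26166 in control, 106347 to 111231 with FGF2 and 64712 to 74094 with DCA+FGF2. With DCA+FGF2 their sum stayed well above control while GLI1 was at 297 against 271. Gene by gene, 10 of the 13 were called lower with DCA+FGF2 than with FGF2 and 0 higher (all genes called 52.8%). Their median log2 difference was -1.43, where GLI1 had -1.74. The part of these progenitor markers in the GLI1 difference was not tested.

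**Figure D2:**
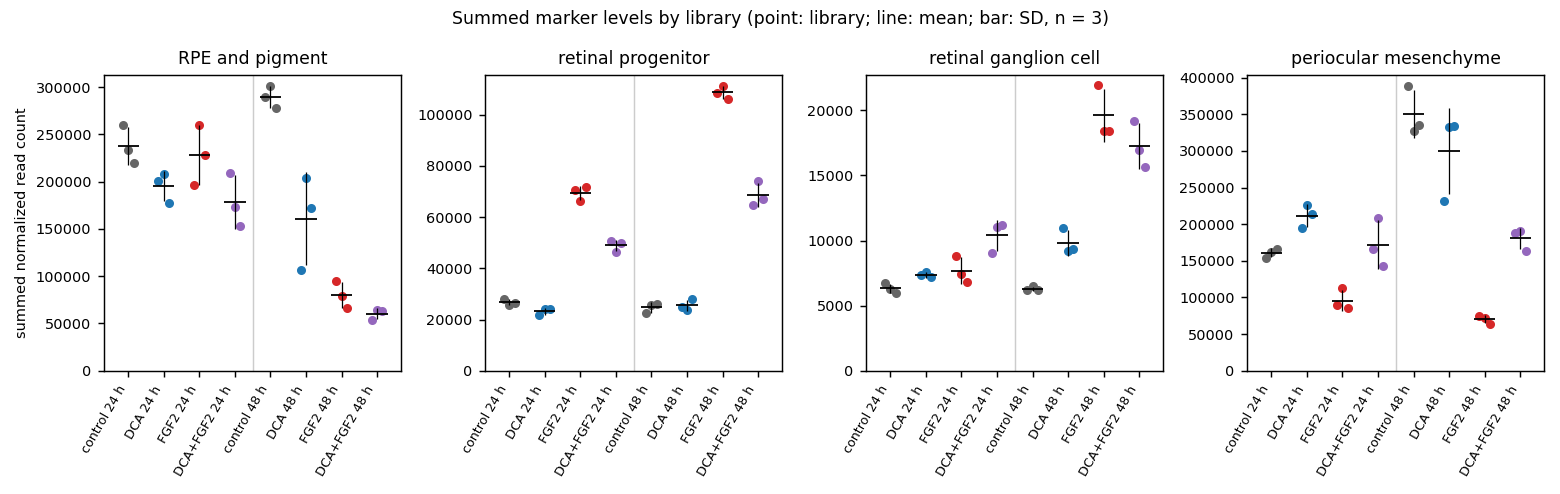
Summed normalized read counts of 4 marker lists (y axes, linear, a separate scale per list) in each library by treatment and time (x axes). Points are libraries, lines are means and bars are SDs (n = 3). At 48 h FGF2 libraries have the highest progenitor sums (106347 to 111231) and the lowest mesenchyme sums (64381 to 75289), and DCA+FGF2 libraries lie between FGF2 and control on both.

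GLI2 (ENSGALG00000011630), the main source of GLI activator, fell with FGF2 at 24 h and overlapped control at 48 h. At 24 h the control libraries held 1534, 1854 and 1631 normalized counts, the FGF2 libraries 1201, 1125 and 1051, and the DCA+FGF2 libraries 1264, 1690 and 1400. At 48 h control held 1564, 1559 and 1610, FGF2 1569, 1546 and 1527, and DCA+FGF2 2356, 1761 and 1913. FGF2 lay below control without overlap at 24 h and overlapped it at 48 h, and DCA+FGF2 lay above FGF2 at both times.

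The GLI2 change with FGF2 was -0.57 ± 0.11 at 24 h (adjusted p = 0.000453) and -0.03 at 48 h (adjusted p = 0.852), and the difference between these was 0.54 (adjusted p = 0.0128; 0.0548 without the 2 deepest libraries). DCA+FGF2 exceeded FGF2 by 0.36 at 24 h (adjusted p = 0.0163) and 0.37 at 48 h (0.00895). The first was lost without replicate 3 of FGF2 (adjusted p = 0.0682) or replicate 2 of DCA+FGF2 (0.121), and the second without replicate 1 of DCA+FGF2 (0.0814). GLI1 and GLI2 thus stood in opposite order between FGF2 and DCA+FGF2 at 48 h.

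GLI3 (ENSGALG00000040266), the main source of GLI repressor, was higher with FGF2 alone than in control at both times. At 48 h the control libraries held 371, 345 and 245 normalized counts, the DCA libraries 444, 356 and 397, the FGF2 libraries 630, 473 and 512, and the DCA+FGF2 libraries 582, 503 and 585. All 6 libraries with FGF2 lay above all 6 without it. GLI3 rose by 0.76 ± 0.20 with FGF2 against control at 48 h (adjusted p = 0.00269), with DCA+FGF2 against FGF2 at 0.06 (interval -0.36 to 0.47). DCA+FGF2 against DCA gave 0.48 (interval 0.07 to 0.90), which was not called (limma adjusted p = 0.0666).

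At 24 h GLI3 held 216, 365 and 353 normalized counts in control and 416, 543 and 486 with FGF2, a difference of 0.66 ± 0.20 (adjusted p = 0.0148). This call was lost without replicate 1 of control, the lowest library (adjusted p = 0.12), without replicate 2 of FGF2 (0.0661), and when these groups alone were fitted (0.0579). With DCA present FGF2 made no called difference at 24 h (0.04, interval -0.38 to 0.45, limma adjusted p = 0.919). The DCA+FGF2 libraries held 320, 476 and 469 and overlapped those with DCA, at 373, 436 and 407. The difference between the FGF2 effects against control at the 2 times was 0.10 (interval -0.48 to 0.69).

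**Figure D3:**
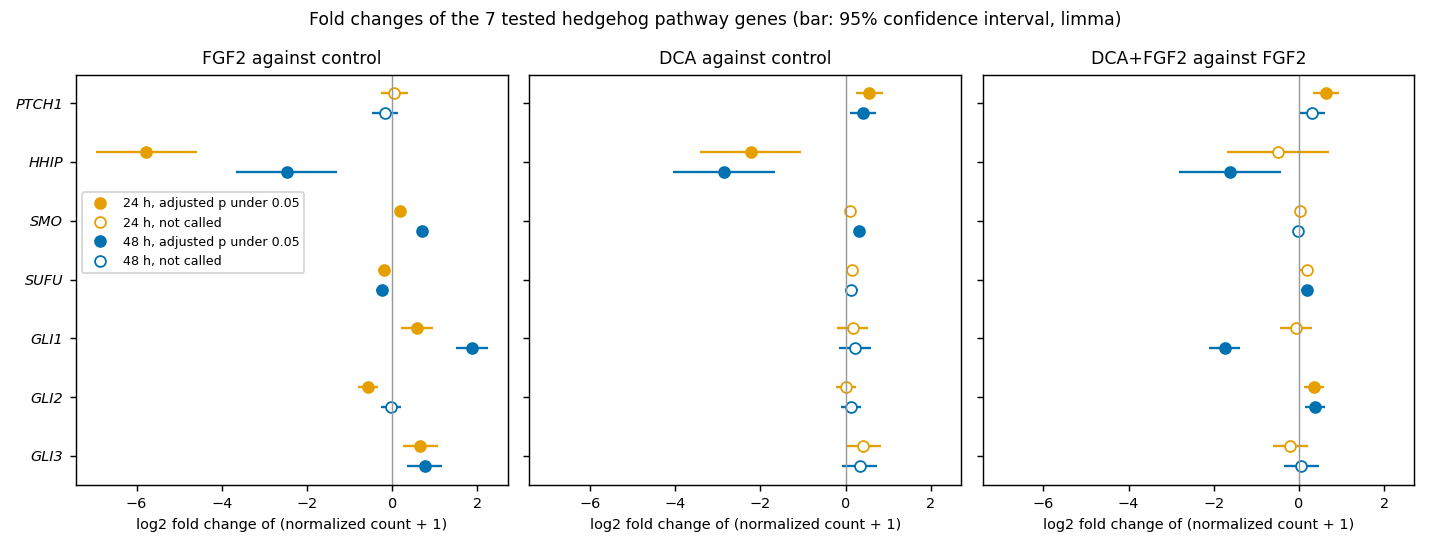
Log2 differences in normalized count + 1 (x axis) for the 7 tested pathway genes (y axis), with bars for 95% intervals, in the comparisons of FGF2, DCA and DCA+FGF2 at 24 and 48 h. Filled points were called. At 48 h GLI1 stands at 1.88 for FGF2 against control and -1.74 for DCA+FGF2 against FGF2, where SMO stands at 0.70 and -0.02 and GLI3 at 0.76 and 0.06.

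Read against all genes, the number of pathway genes that changed was not uniformly high. HHIP is in these counts although its control libraries admitted it to the test. With FGF2 at 24 h 6 of 7 were called, 3 higher (SMO, GLI1, GLI3) and 3 lower (HHIP, GLI2, SUFU), where 29.8% of all genes tested were called. With single libraries left out this count ran from 3 to 5, and SMO, GLI1, GLI3 and SUFU each lost the call in some of these fits. At 48 h the count with FGF2 was 5 of 7 (SMO, GLI1 and GLI3 higher, HHIP and SUFU lower) against 54.6% of all genes. DCA against control gave 2 of 7 at 24 h (PTCH1 higher, HHIP lower; all genes 20.1%) and 3 of 7 at 48 h, when SMO was added (all genes 34.1%).

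DCA+FGF2 against FGF2 gave 2 of 7 at 24 h (PTCH1 and GLI2 higher; all genes 35.8%) and 4 of 7 at 48 h (GLI2 and SUFU higher, GLI1 and HHIP lower; all genes 52.8%). DCA+FGF2 against DCA gave 1 of 7 at 24 h (HHIP lower; all genes 25%) and 2 of 7 at 48 h (SMO higher, SUFU lower; all genes 33.9%). These comparisons share libraries. FGF2 and DCA were each set against the same controls, and DCA+FGF2 was set against each single agent. The FGF2 libraries enter FGF2 against control and, with opposite sign, DCA+FGF2 against FGF2, so these results are not independent. Apart from HHIP and GLI1 the called differences between treatments were of at most 0.76 on the log2 scale.

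The interaction of DCA with FGF2 was called for GLI1 and SMO at 48 h (2 of 7; all genes 30.1%) and for 0 of 7 at 24 h by limma, edgeR and DESeq2 (all genes 2.92%), where 3 of 7 had an unadjusted limma p under 0.05. Time in culture changed 0 of 7 in control by all 3 tools (all genes 17%; 2 of 7 at an unadjusted p under 0.05). It changed 4 of 7 with FGF2 (SMO, HHIP, GLI1 and GLI2, all higher at 48 h; all genes 37.5%), 1 of 7 with DCA (SMO higher; all genes 25.4%) and 4 of 7 with DCA+FGF2 (SMO, HHIP and GLI2 higher, GLI1 lower; all genes 33.7%). The HHIP call in the last rests on 12 reads against 0 and was lost with an added constant of 5 (adjusted p = 0.0655) and when these groups alone were fitted (0.109). The FGF2 effect differed between 24 and 48 h for 4 of 7 (SMO, HHIP, GLI1 and GLI2; all genes 30.2%), and the DCA effect for 0 of 7 by the 3 tools (all genes 4.91%; 1 of 7 at an unadjusted p under 0.05). Every percentage of all genes here is at an adjusted p under 0.05. No such share is given at an unadjusted p, so the unadjusted counts cannot be set against these percentages.

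Ordered by mean level over the 8 groups, GLI1 was highest with FGF2 at 48 h, separate from the next group, and its lowest mean was in control at 48 h, with no gap between neighbours from FGF2 at 24 h downwards. SMO had 2 gaps, below the pair of FGF2-containing groups at 48 h and below DCA at 48 h. HHIP had a gap below the controls, below DCA at 48 h and below DCA+FGF2 at 48 h. GLI2 had its only gap above FGF2 at 24 h, the lowest group, and SUFU had a gap below DCA at 48 h. For SUFU, DCA+FGF2 at 48 h was separate from the next group, control at 24 h. It overlapped the lower-ranked DCA+FGF2 group at 24 h, so that was no gap. PTCH1 and GLI3 had no gap between any neighbouring groups.

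The pathway genes did not share 1 pattern over the 24 libraries. As a description, Pearson r on the log2 scale was -0.23 between PTCH1 and GLI1, -0.34 between HHIP and GLI1 and 0.62 between PTCH1 and SUFU. All of these include the differences between treatment groups. The genes with a symbol most like each one, among 11468, were SV2B for PTCH1 (r = 0.90), PCBP2 for SMO (0.95), LHFPL4 for HHIP (0.93), HNRNPH3 for GLI1 (0.91), HS3ST4 for GLI2 (0.79), STON2 for GLI3 (0.84) and MDM2 for SUFU (0.91). The next nearest to GLI1 were NRARP, a feedback inhibitor of Notch signalling, and PARP1 (0.90 each).

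Around these core genes, 83 others of the pathway were listed by role: 73 had a row and 67 were tested. With FGF2, 17 of 67 were higher and 8 lower at 24 h (all genes called 29.8%), and 16 higher and 19 lower at 48 h (54.6%). The median log2 difference was -0.05 and 0.02, against -0.01 and -0.02 over all genes. DCA alone gave 12 higher and 5 lower at 24 h (20.1%) and 14 higher and 5 lower at 48 h (34.1%). DCA+FGF2 against FGF2 gave 9 higher and 12 lower at 24 h (35.8%) and 19 higher and 21 lower at 48 h (52.8%), with medians of -0.02 at both times.

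Ligands and their release were represented by 6 tested genes, DHH among them. DISP1, which frees the lipid-modified ligand from the producing cell, fell with FGF2 from 4522 to 2383 normalized counts at 24 h (-0.92 ± 0.12, adjusted p = 2.54e-06) and from 4204 to 2163 at 48 h (-0.96 ± 0.12, adjusted p = 4.08e-07). SCUBE2, a secreted protein that helps in that release, was raised by DCA at 48 h both alone (108 to 453, 2.05, adjusted p = 3.22e-05) and with FGF2 (80.5 to 618, 2.92, adjusted p = 7.14e-08). Its relative SCUBE3 fell with DCA at 48 h, by 1.47 alone and by 1.57 with FGF2 (adjusted p = 3.82e-05 and 4.92e-06).

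Among 9 tested receptors and coreceptors, 2 rose and 1 fell with FGF2 at 24 h, and 2 rose and 2 fell at 48 h (all genes called 29.8% and 54.6%). CDON, a coreceptor that binds the ligand together with PTCH1, held 1658, 1853 and 1791 normalized counts in control and 10525, 9590 and 8482 with FGF2 at 24 h. These groups were far apart, at 2.43 ± 0.12 (adjusted p = 5.96e-12), and at 48 h the difference was 2.24 ± 0.12 (adjusted p = 1.97e-12). DCA lowered CDON under FGF2 to 4044, 4721 and 4587 at 24 h (-1.10, adjusted p = 5.58e-07), still above every control library, and by 0.42 at 48 h (adjusted p = 0.00491).

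GAS1, another coreceptor, was not called with FGF2 at 48 h (-0.27 ± 0.23, adjusted p = 0.332) but was raised by DCA alone (1.02 ± 0.23, adjusted p = 0.0015) and on top of FGF2 (1.61 ± 0.23, adjusted p = 4.08e-06). GPC3, a glypican that competes with PTCH1 for ligand, fell with FGF2 from 5923 to 817 normalized counts at 48 h (-2.85 ± 0.13, adjusted p = 2.68e-13) and was higher with DCA+FGF2 than with FGF2, at 1463 (0.84, adjusted p = 1.15e-05). GPC4 was above FGF2 in DCA+FGF2 at 48 h by 1.07 (adjusted p = 8.9e-09). The mesenchyme sums given above moved the same way as GPC3 at 48 h, and their part was not tested.

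**Figure D4:**
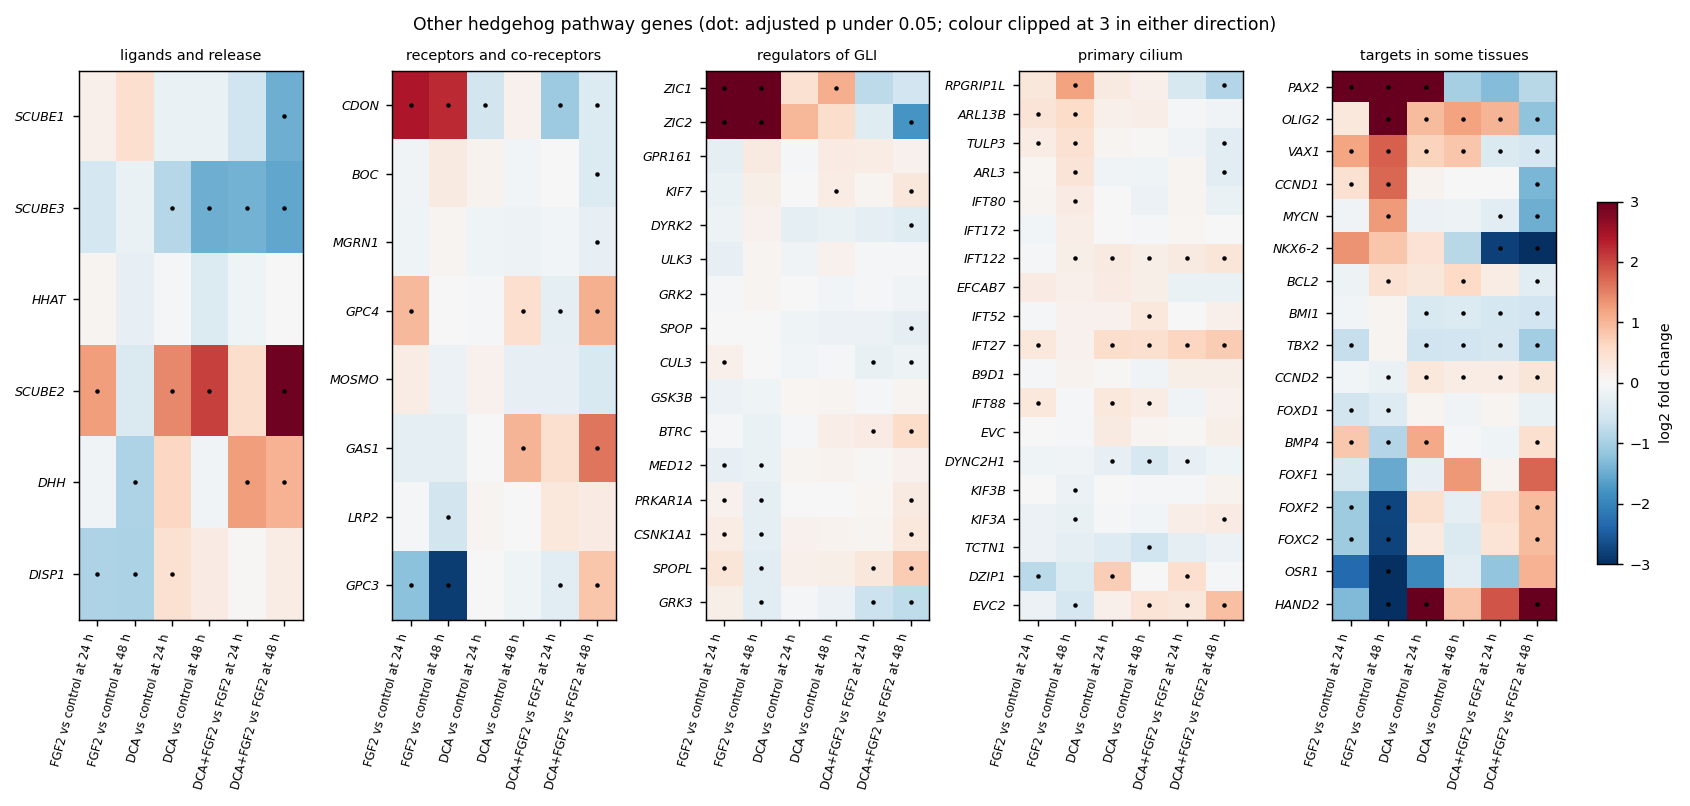
Colour map of log2 fold changes (colour scale, clipped at 3 in either direction) for other pathway genes tested, in 5 panels by role (rows), over 6 comparisons (columns). Dots mark an adjusted p under 0.05. CDON, ZIC2, CCND1 and OLIG2 are higher with FGF2 than in control at 48 h (2.24, 5.58, 1.71 and 3.06) and lower in DCA+FGF2 than in FGF2. They do not stand for the lists. Of 67 genes tested, 16 were higher and 19 lower with FGF2 at 48 h (all genes called 54.6%). In DCA+FGF2 against FGF2 at 48 h, 19 were higher and 21 lower (52.8%).

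Of 16 tested regulators of the GLI factors, 6 rose and 1 fell with FGF2 at 24 h (all genes called 29.8%), and 2 rose and 5 fell at 48 h (54.6%). The zinc finger factors ZIC1 and ZIC2, relatives of the GLI family that can bind GLI proteins, rose most, by 4.52 and 3.54 at 24 h and by 5.73 and 5.58 at 48 h (adjusted p = 6.33e-07 or less). ZIC2 held 38.4, 65.7 and 46.1 normalized counts in control and 2303, 2530 and 2344 with FGF2 at 48 h, and 610, 948 and 582 with DCA+FGF2. The last group was thus between the others, with a difference from FGF2 of -1.78 (adjusted p = 0.000742) and an interaction of -2.31 (adjusted p = 0.00362). The kinase GRK3 fell when DCA was added to FGF2 at 48 h (-0.77, adjusted p = 5.62e-06), and SPOPL, a relative of the GLI-degrading adaptor SPOP, rose (0.75, adjusted p = 3.93e-05).

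Genes of cilium function moved in both directions. Of 19 tested, 4 rose and 1 fell with FGF2 at 24 h (all genes called 29.8%) and 6 rose and 3 fell at 48 h (54.6%), with a median of 0.12 at 48 h. TULP3, which carries receptors into the cilium, rose by 0.45 (adjusted p = 2.29e-05) and RPGRIP1L, a protein of the ciliary transition zone, by 1.20 (adjusted p = 8.61e-05) at 48 h. IFT27, a small GTPase of ciliary transport, rose with DCA at both times, by 0.53 and 0.48 alone and by 0.65 and 0.76 on top of FGF2 (adjusted p from 7.52e-06 to 0.00238). EVC2, which binds activated SMO in the cilium, was higher with DCA+FGF2 than with FGF2 at 48 h by 0.90 (adjusted p = 1.26e-06).

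Of 17 tested genes known as hedgehog targets in some tissues, 6 rose and 7 fell with FGF2 at 48 h (all genes called 54.6%), and 5 rose and 8 fell when DCA was added to FGF2 (52.8%). CCND1, the G1 cyclin, held 1282, 1207 and 1189 normalized counts in control, 3962, 3861 and 4250 with FGF2, and 1533, 1762 and 1358 with DCA+FGF2 at 48 h. The FGF2 libraries stood far above both other groups. CCND1 rose by 1.71 ± 0.11 with FGF2 (adjusted p = 5.6e-11), and DCA+FGF2 was below FGF2 by -1.38 ± 0.11 (adjusted p = 2.03e-09). MYCN, a growth-promoting factor and a hedgehog target in cerebellar progenitors of the mouse, fell from 2138 to 790 normalized counts between FGF2 and DCA+FGF2 (-1.46, adjusted p = 3.66e-09), against 884 in control.

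OLIG2, a ventral neural progenitor factor, held 115, 112 and 181 normalized counts in control at 48 h, 1263, 1099 and 1002 with FGF2, and 419, 528 and 500 with DCA+FGF2. It rose by 3.06 ± 0.23 with FGF2 (adjusted p = 2.69e-10), with an interaction of -2.42 ± 0.32 (adjusted p = 9.64e-06). DCA alone raised it as well at 48 h (1.20, adjusted p = 0.000333). VAX1, a ventral eye factor, rose by 1.80 with FGF2 at 48 h (adjusted p = 1.38e-09) with an interaction of -1.35 (adjusted p = 5.55e-05). The interaction at 48 h was called for 21 of the 67 genes, 10 higher and 11 lower, where 30.1% of all genes were called. At 24 h it was called for 4, all lower (all genes 2.92%), a count that ran from 2 to 5 over the alternatives.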

How the data were processed

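The deposited table gives signal values, which are read counts that the authors divided by 1 size factor per library. The submitters' processing notes name the build GRCg6a, DESeq2 1.34.0, StringTie 2.1.4, STAR 2.7.5b and Trim Galore 0.6.4. Settings of the counter and of strand are not given in the labels used here. Whole reads came back for 100% of values, within 0.001, when columns were divided by their smallest step, though StringTie output may hold estimates.

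Genes averaging 10 or more normalized counts across the 24 libraries (15001) were fitted as log2 of the count plus 1, by limma-trend with 8 group means, 16 residual degrees of freedom and 16 comparisons. Benjamini-Hochberg adjustment ran over all genes of a comparison, and genes were called under an adjusted p of 0.05. This scale understates fold changes of low genes.

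The genes, the lists and the tests were chosen with earlier results of these data known. Up to 4 called genes per list and comparison, those with the smallest adjusted p, were eligible to be named. Values of these genes in other comparisons, and of IHH, ATOH7 and the ventral midline markers, were added after they were seen. Alternatives were other pseudocounts, filters, scalings and fits, a replicate block, edgeR and DESeq2 on recovered reads, and each library left out. The fit was tested on simulated data. Versions were edgeR 4.0.16, DESeq2 1.42.0, limma 3.58.1 and R 4.3.3. Overlapping or antisense genes cannot be separated. Results of 1 listed gene are not reported here.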

Additional observations from a re-analysis of the deposited data

Results flagged for a closer look

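The effect of DCA at 48 h differed between explants with and without FGF2 for 2 of the 7 tested genes. This was by the test of the interaction in limma, which called 30.1% of all genes. For GLI1 the difference was -1.96 on the log2 scale, and for SMO it was -0.326.

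The FGF2 effect differed between 24 and 48 h for 4 of 7 tested genes, by the test of that difference (all genes 30.2%). It was higher at 48 h by 3.29 for HHIP, 1.29 for GLI1, 0.541 for GLI2 and 0.526 for SMO on the log2 scale. HHIP is in this count although its control libraries, which enter the comparison, admitted it to the test. The GLI2 call was lost without the 2 deepest libraries (limma adjusted p = 0.0548). For HHIP this was a smaller fall at 48 h, since the 24 h libraries with FGF2 held 3 reads in all, and its size ran from 1.63 to 4.00 over the alternatives.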

How the results depend on the processing

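No value of the 7 tested genes changed direction where it was called, over 2112 values recomputed under alternatives, of which 45 lost a call and 8 gained one. Of 40 calls, 28 held under every alternative in which the gene was tested. Among them were GLI1, SMO, GLI3 and SUFU with FGF2 at 48 h. GLI1 with DCA+FGF2 against FGF2 at 48 h and PTCH1 with DCA at 24 h held as well. So did HHIP with FGF2 at 48 h, though its control libraries admitted it to the test. With a mean of at least 50 required, HHIP was not tested, and the genes called numbered 1 for DCA against control and 0 for DCA+FGF2 against DCA at 24 h. Scaling to total reads gave 2 in the latter. Fitting only the groups compared gave 1 for DCA+FGF2 against FGF2 at 24 h and 2 at 48 h, and leaving out the 2 deepest libraries, chosen after seeing the data, gave 1 at 24 h. With single libraries left out, counts ran from 3 to 5 for FGF2 against control at 24 h, 1 to 3 for DCA+FGF2 against FGF2 at 24 h and 1 to 4 at 48 h, 1 to 3 for DCA+FGF2 against DCA at 24 h and 1 to 2 at 48 h, and 0 to 1 for control over time. The cause was not tested.

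Replicate numbers did not pair the libraries: the correlation of deviations ran from -0.0917 to 0.0974, and in 2 of 12 comparisons every library correlated best with its own number. With a replicate block none of the 112 values of the tested genes, called or not, gained or lost a call. For FGF2 against control 6 were still called at 24 h and 5 at 48 h. Over all genes, calls moved by more than 1.5 times for the interaction at 24 h (438; 818 with DESeq2, 230 to 572 without single libraries, lowest without DCA+FGF2 24 h replicate 2), for DCA over time (3809 to 2318 with only these groups fitted) and for the DCA effect between times (736; 385 and 1238 by fit or tool, 360 to 1058 without single libraries, lowest without DCA 24 h replicate 1). SHH, with 66 reads at most in a group, is limited by depth.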

Other observations

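Among the 17 tested genes known as hedgehog targets elsewhere, 2 fell wherever DCA was tested. With DCA alone, 6 of the 17 were higher and 2 lower at 24 h (all genes called 20.1%). At 48 h it was 4 higher and 2 lower (34.1%). When DCA was added to FGF2, 2 were higher and 5 lower at 24 h (35.8%), and 5 higher and 8 lower at 48 h (52.8%). BMI1, a Polycomb protein, fell with DCA alone at 24 h (-0.45 on the log2 scale, limma adjusted p = 0.00263) and 48 h (-0.41, adjusted p = 0.00281) and when DCA was added to FGF2 (-0.52 and -0.57, adjusted p = 0.000338 and 5.11e-05), and was not called with FGF2 alone. TBX2, a dorsal eye factor, fell with DCA in the same 4 comparisons and with FGF2 at 24 h (-0.68, adjusted p = 0.000413), and went from 1035 to 507 normalized counts when DCA was added to FGF2 at 48 h (-1.03, adjusted p = 1.2e-06).

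PAX2, a factor of the optic stalk, held 0, 0 and 28.3 normalized counts in control at 24 h and 399, 263 and 106 with FGF2, a difference called at an adjusted p of 0.000108. FOXC2, which is expressed in mesenchyme, held 1493, 1350 and 1528 in control at 48 h, 233, 242 and 171 with FGF2, and 472, 446 and 334 with DCA+FGF2, so that the groups did not overlap. Summed mesenchyme markers had the same order of groups, and their part in the FOXC2 difference was not tested.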
